A study of Mus musculus with 2 samples.

Results

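The 7 genes described here code for enzymes of cholesterol synthesis and a regulator of that pathway. They are Hmgcs1, Idi1, Fdft1, Sqle, Lss, Cyp51 and Insig1, chosen by symbol from the 32544 genes of the count tables, and each was found once in both libraries. Cells build cholesterol from acetyl-CoA through the mevalonate pathway, whose products squalene and lanosterol lead to the sterols, while side branches give isoprenoid lipids and the prenyl groups of small GTPases. The transcription factor SREBP2 drives most genes of the pathway: when sterols in the endoplasmic reticulum run low, SCAP carries it to the Golgi for cleavage, and INSIG proteins hold the complex back when sterols are plentiful. Macrophages also take up cholesterol with lipoproteins and cell debris and export the excess, and osteoclasts (OCs), which arise from the same lineage and resorb bone, are known to depend on cholesterol supply for fusion and survival. None of the 7 genes is an uptake receptor, so genes of uptake are given as a separate list.

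Bone marrow-derived monocytes (BMDMs) from mouse femurs were cultured with the OC-inducing cytokines M-CSF (50 ng/ml) and RANKL (100 ng/ml), and single-cell mRNA sequencing was performed at 24 h, with 1 library from a control and 1 from a LysM-Cre;Arid1afl/fl culture (the mutant library). LysM-Cre is a recombinase made under the Lyz2 promoter, hence in myeloid cells, where it cuts the floxed Arid1a, a component of BAF chromatin remodelers. The control was labelled only as CONTROL, without its alleles, and both libraries received the same cytokines. Per the study's methods the mice were 4 to 6 weeks old and of either sex, and the number of mice behind a library was not stated.

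After filtering, 6269 control cells with a median of 23978 unique molecular identifiers (UMIs) and 5663 mutant cells with a median of 21734 UMIs remained. The libraries shared 8 cell barcodes, 7 of them among these cells. The targeted gene, Arid1a, had 51.9 counts per 1e6 UMIs (CPM) in control cells and 20.4 CPM in the mutant library, a log2 ratio of -1.35 (-1.41 to -1.28); a 3′ kit still counts transcripts of a recombined allele. The cells expressed the monocytic markers Lyz2, Csf1r, Cd68 and Adgre1, and erythroid genes were at 3 and 0 UMIs. Libraries differed in other cell types: 4 neutrophil genes summed to 264 CPM in control cells and 1982 CPM in the mutant library, and 4 class II genes to 28.7 and 116 CPM. Intervals in parentheses are 95% intervals of counting error alone. With 1 library per genotype no difference has a replicate check, so no test was made and the ratios describe these libraries.

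Promoter sequences were searched for the letters that SREBPs and their partners are known to bind. For 5 of the 7 genes (not Sqle and Fdft1) RefSeq promoters of GRCm38.p6 were at hand, and 4 of them are shown, those of the 4 genes with the largest ratios between the libraries (log2 0.95 to 1.23), leaving out that of Lss (0.45). Each line gives the 250 bases before the transcription start, at chr13:119690101-119690350 (plus strand) for Hmgcs1, chr5:4104698-4104947 (minus strand) for Cyp51, chr5:28071162-28071411 (plus strand) for Insig1 and chr13:8885356-8885605 (plus strand) for Idi1. Capitals mark matches, on either strand, to the core of the sterol regulatory element bound by SREBPs (TCACNCCAC), to a looser form of it (TCACNNCA) and to the CCAAT box bound by NF-Y, a known partner of SREBPs.
Hmgcs1: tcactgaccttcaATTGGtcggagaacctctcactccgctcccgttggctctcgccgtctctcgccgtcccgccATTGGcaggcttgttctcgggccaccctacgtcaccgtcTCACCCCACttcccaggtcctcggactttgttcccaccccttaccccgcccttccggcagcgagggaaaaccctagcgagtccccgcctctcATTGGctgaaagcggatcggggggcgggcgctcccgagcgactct
Cyp51: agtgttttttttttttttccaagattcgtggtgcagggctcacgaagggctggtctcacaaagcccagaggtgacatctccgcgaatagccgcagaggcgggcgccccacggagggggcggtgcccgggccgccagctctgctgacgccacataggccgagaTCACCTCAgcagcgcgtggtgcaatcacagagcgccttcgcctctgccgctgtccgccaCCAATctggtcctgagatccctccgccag
Insig1: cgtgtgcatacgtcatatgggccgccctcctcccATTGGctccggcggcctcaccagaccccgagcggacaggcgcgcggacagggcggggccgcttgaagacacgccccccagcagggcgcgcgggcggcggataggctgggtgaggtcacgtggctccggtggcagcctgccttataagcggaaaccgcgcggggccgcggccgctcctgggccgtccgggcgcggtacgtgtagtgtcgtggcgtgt
Idi1: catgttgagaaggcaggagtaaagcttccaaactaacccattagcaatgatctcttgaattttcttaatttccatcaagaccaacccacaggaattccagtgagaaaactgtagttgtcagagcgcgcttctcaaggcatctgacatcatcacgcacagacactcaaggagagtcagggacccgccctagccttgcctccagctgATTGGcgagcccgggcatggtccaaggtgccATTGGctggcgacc
The sterol element core was found only in Hmgcs1, 137 to 129 bases before the start, and 1.05% of 32851 promoter windows hold it. The looser form, which overlaps that match, was found in Hmgcs1 and, 88 to 81 bases before the start, in Cyp51, against 11.4% of all windows. All 5 promoters held a CCAAT box, which 33.8% of windows have, and all 5 held the GC box GGGCGG, not capitalised, which 32.7% have. These are matches of letters in short windows and no measurement of binding.

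Over all cells, 6 of the 7 genes were at least 1.37-fold higher in the mutant library and Sqle was 1.09-fold higher. The 7 genes summed to 96.8 CPM (95.3 to 98.4) in control cells and 169 CPM (167 to 171) in the mutant library, which is 1.74-fold higher, a log2 ratio of 0.80 (0.77 to 0.83). Of the 7 genes, 5 (Hmgcs1, Idi1, Fdft1, Cyp51 and Insig1) were at least 1.5-fold higher and none was as much lower. Of the 5219 genes averaging at least 20 CPM over both libraries, 12.6% were higher and 5.61% lower by that fold. The 7 genes had a median log2 ratio of 0.95, while all these genes had a median of 0.022 and a range from the 5th to the 95th percentile of -0.61 to 1.07. Only 4 of the 7 genes reached a mean of 20 CPM, 3 of them past the fold, and at a 2-fold limit 3 of the 7 genes (Idi1, Cyp51 and Insig1) remained, beside 5.65% of all genes. Over genes averaging at least 1 CPM, which hold all 7, 14.9% were higher and 7.39% lower by 1.5-fold.

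**Figure D1:**
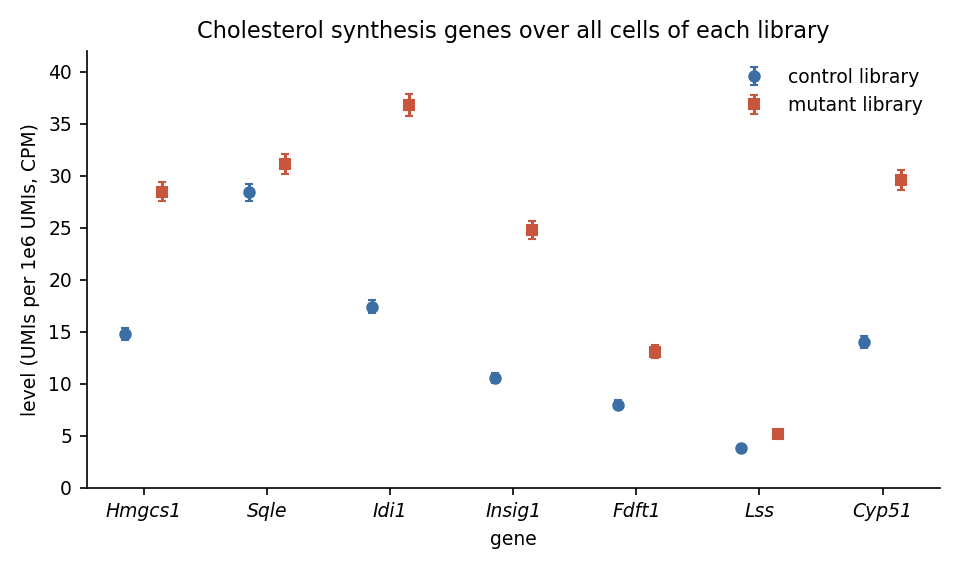
Levels of the 7 genes over all kept cells, in UMIs per 1e6 UMIs (CPM), with 1 point per library and bars for 95% exact Poisson intervals. Insig1 went from 10.5 to 24.8 CPM between the libraries, while Sqle lay at 28.4 and 31.1 CPM.

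Hmgcs1 (ENSMUSG00000093930, GRCm39 chr13:120151915-120170470), the cytosolic enzyme that makes HMG-CoA at the head of the pathway, had 14.7 CPM (2412 UMIs) in control cells and 28.4 CPM (3739 UMIs) in the mutant library, a log2 ratio of 0.95 (0.87 to 1.02). Idi1 (ENSMUSG00000058258, chr13:8935537-8942487), the isomerase that interconverts the isoprene building blocks, had 17.4 CPM (2846 UMIs) and 36.8 CPM (4833 UMIs), a log2 ratio of 1.08 (1.01 to 1.15). Its paralog Idi2 had 3 and 1 UMIs, and how many reads these copies could share was not tested. Both enzymes before the squalene step were thus about 2 times as high in the mutant library, and neither pair of intervals overlapped.

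The enzymes that commit the pathway to sterols differed more among themselves. Fdft1 (ENSMUSG00000021273, chr14:63382189-63417027), squalene synthase, had 7.96 CPM (1303 UMIs) in control cells and 13.1 CPM (1717 UMIs) in the mutant library, a log2 ratio of 0.71 (0.61 to 0.82). Sqle (ENSMUSG00000022351, chr15:59186869-59203043), squalene epoxidase and a rate-limiting step, had 28.4 CPM (4645 UMIs) and 31.1 CPM (4086 UMIs), a log2 ratio of 0.13 (0.07 to 0.19). Sqle was the smallest of the 7 ratios, and it dropped to 0.02 when totals were taken without mitochondrial and ribosomal protein genes.

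Lss (ENSMUSG00000033105, chr10:76367298-76392976), which closes the rings to form lanosterol, was thinly counted, with 3.78 CPM (619 UMIs) and 5.18 CPM (681 UMIs) and a log2 ratio of 0.45 (0.29 to 0.61). Cyp51 (ENSMUSG00000001467, chr5:4123416-4154751), the cytochrome P450 that demethylates lanosterol, had 14.0 CPM (2295 UMIs) and 29.6 CPM (3886 UMIs), a log2 ratio of 1.08 (1.00 to 1.15). Insig1 (ENSMUSG00000045294, chr5:28276315-28283668), the sterol-sensing anchor of SCAP and itself a known SREBP target, had 10.5 CPM (1724 UMIs) and 24.8 CPM (3257 UMIs). Its log2 ratio of 1.23 (1.15 to 1.32) was the largest of the 7.

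Some of these counts are uncertain, since the use of strand in counting was not given. Fdft1 overlaps the cathepsin gene Ctsb on the opposite strand, which had 2170 CPM in control cells and 3767 CPM in the mutant library, a log2 ratio of 0.80 (0.79 to 0.80), against 0.71 for Fdft1. Sqle overlaps Washc5 (log2 ratio 0.29) and Cyp51 overlaps Akap9 (-0.07), while the partner of Hmgcs1, Nim1k, had only 164 and 37 UMIs. The share of Fdft1 counts that could come from Ctsb was not tested.

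Technical differences between the libraries were set beside the summed ratio of 0.80. Mitochondrial and ribosomal protein genes took 23.9% of control and 17.9% of mutant UMIs, and without them in the totals the ratio was 0.69 (0.66 to 0.72). Without cells of other types (stromal-like, neutrophil-like or expressing class II genes, 36 control and 205 mutant cells) it was 0.81 (0.78 to 0.84), as large as with them. In quintiles of the cells by depth the summed level ran from 93.7 to 102 CPM in control cells and from 157 to 187 CPM in the mutant library, so that every mutant quintile lay above every control quintile.

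To see whether more cells carried these transcripts, each cell was thinned to 5000 UMIs. A UMI of any of the 7 genes was then seen in 2168 of 6101 control cells, or 35.5% (34.3 to 36.8%), and in 2613 of 5312 mutant cells, or 49.2% (47.8 to 50.5%), a difference of 13.7 percentage points (11.8 to 15.5). Without thinning the shares were 79.2% and 79.6%. Neutrophil-like cells had shares of 35.3% (6 of 17 control cells) and 36.0% (27 of 75 mutant cells), at medians of 8616 and 10828 UMIs against 24266 and 22412 UMIs over all cells. Cholesterol synthesis occurs in nearly every cell type, so no type here sets a level without these transcripts. In control cells the interval of the neutrophil-like share, 14.2 to 61.7%, held the share of all cells, and at 2000 UMIs the shares were 5.26% (1 of 19 neutrophil-like cells) and 16.6%.

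The spread of these UMIs over cells was also measured. At 5000 UMIs a control cell held on average 0.494 UMIs of the 7 genes and a mutant cell 0.874. The variance over the mean was 1.28 in control cells and 1.64 in the mutant library, where cells differing by counting alone would give about 1. Cells with 3 or more of these UMIs made up 2.90% of control and 9.17% of mutant cells, and cells in which at least 2 of the 7 genes were seen made up 8.52% and 19.2%. These measures increase with the mean: control cells at 10000 UMIs, with a mean of 0.981, had a variance over the mean of 1.64, 10.3% of cells with 3 or more UMIs and 20.3% with at least 2 of the genes, close to the mutant cells at 5000 UMIs. Among single genes, the share of cells with a UMI went from 5.29% to 11.4% for Insig1 and from 8.20% to 15.0% for Idi1, whereas it was 13.0% and 14.9% for Sqle.

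Cells were then sorted by 2 gates on the thinned counts. The OC gate summed Acp5, Ctsk, Dcstamp and Mmp9 and the cycling gate Aurka, Cdk1, Mki67 and Top2a, each with a limit of 3 UMIs. In the control library 3353 cells were in neither gate, 2161 in the cycling gate only, 331 in the OC gate only and 256 in both, and in the mutant library 3387, 1730, 137 and 58. Within each library, both groups with OC transcripts had less of the 7 genes than both groups without. In order, they summed to 58.2 CPM in control OC-gate cells, 66.3 in control cells of both gates, 89.3 in mutant OC-gate cells, 101 in control cells of neither gate, 101 in control cycling cells, 119 in mutant cells of both gates, 167 in mutant cells of neither gate and 179 in mutant cycling cells. Intervals overlapped between the 2 lowest groups and among mutant OC-gate cells, control cells of neither gate and control cycling cells.

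**Figure D2:**
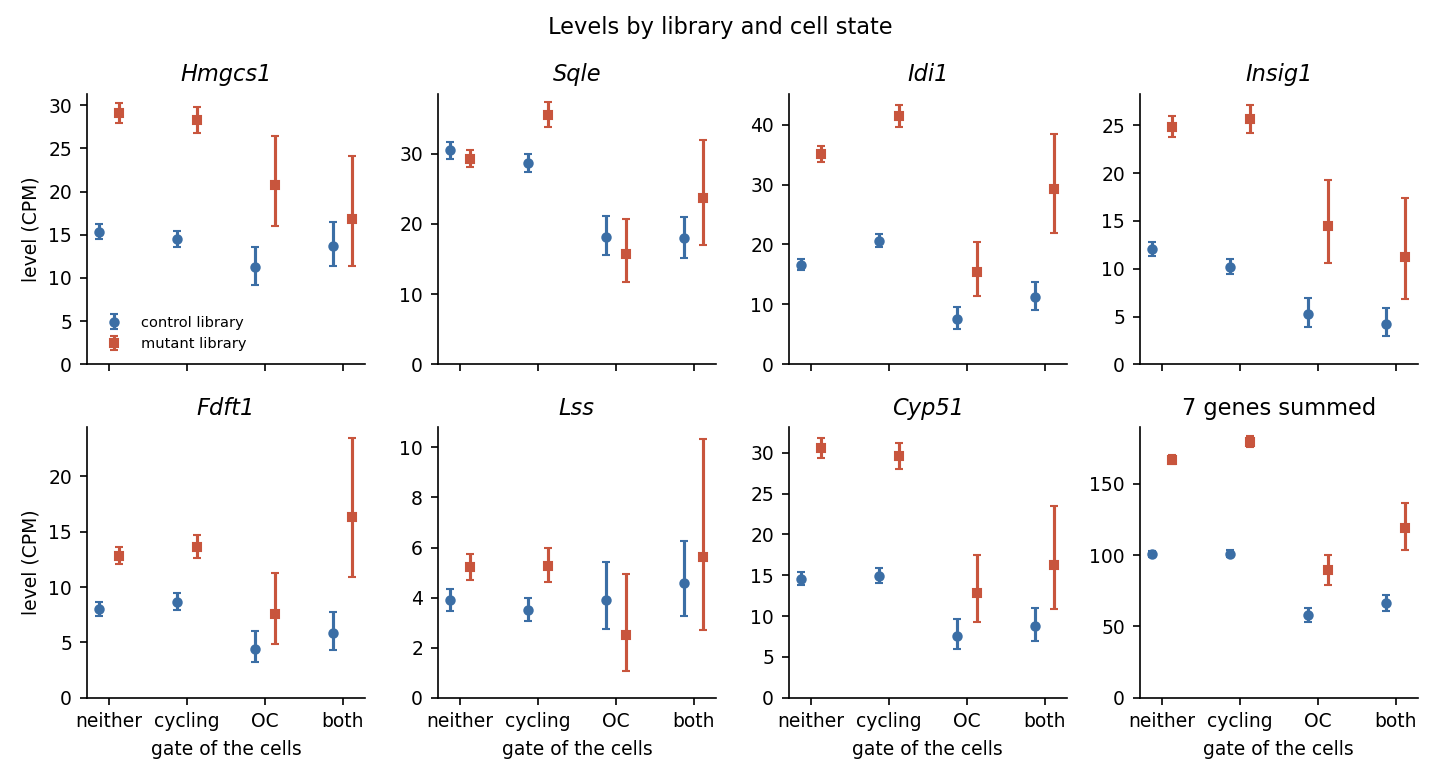
Levels in CPM of each of the 7 genes and of their sum in the cells of neither gate, of the cycling gate only, of the osteoclast (OC) gate only and of both gates, for the control and the mutant library, with 95% exact Poisson intervals as bars. Mutant points lie above control points in every state for the sum, whereas Sqle in cells of neither gate lay at 30.4 CPM in control cells and 29.3 CPM in the mutant library.

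Within every state the 7 genes together were higher in the mutant library. The summed log2 ratio was 0.73 (0.69 to 0.77) in cells of neither gate, 0.83 (0.78 to 0.87) in cycling cells, 0.62 (0.41 to 0.83) in OC-gate cells and 0.85 (0.61 to 1.08) in cells of both gates. At least 1.5-fold higher were 5 of the 7 genes in cells of neither gate (11.6% of all genes), 6 in cycling cells (12.8%), 5 in OC-gate cells (18.6%) and 4 in cells of both gates (17%). None was as much lower in cells of neither gate (4.68% of all genes), cycling cells (5.18%) and cells of both gates (10.3%). One gene, Lss, was as much lower, in OC-gate cells (14.5% of all genes), where it rested on 37 control and 8 mutant UMIs and its ratio had an interval from -1.95 to 0.49. These shares are over genes averaging at least 20 CPM, which none of the 7 genes reached in OC-gate cells. Over genes averaging at least 1 CPM, which hold all 7, 13.8%, 16.2%, 22.5% and 23.1% were higher in these states in that order. In the same order 6.67%, 7.19%, 16.8% and 13.7% of them were lower. With at least 5 gate UMIs required, the summed ratio was 0.39 in OC-gate cells and 0.50 in cells of both gates. The OC gate did not select like cells in the libraries. In OC-gate cells its 4 genes summed to 1671 CPM in the control and 915 CPM in the mutant library. Most of the mutant sum was Acp5, at 784 CPM in the control and 632 CPM in the mutant library. Ctsk had 422 and 179 CPM, Mmp9 387 and 76.1 CPM and Dcstamp 77.9 and 28.3 CPM. In cells of both gates the 4 gate genes summed to 1393 and 1003 CPM. Adgre1 had 56.5 and 418 CPM in OC-gate cells, beside 147 and 534 CPM over all cells. How far these differences enter the ratios within a state was not tested.

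For Sqle the difference between the libraries was not alike in each state. In cells of neither gate it had 30.4 CPM in control cells and 29.3 CPM in the mutant library, a log2 ratio of -0.06 (-0.14 to 0.03). In cycling cells it had 28.6 and 35.5 CPM, a ratio of 0.31 (0.21 to 0.41), and in OC-gate cells 18.1 and 15.7 CPM, a ratio of -0.20 (-0.69 to 0.26). In cells of both gates it had 17.9 and 23.6 CPM, a ratio of 0.40 (-0.13 to 0.90), which ran from -2.12 to 0.61 over the alternatives. Insig1, by contrast, was higher in the mutant library in each state, with 12.0 and 24.9 CPM in cells of neither gate, 10.2 and 25.6 CPM in cycling cells, 5.30 and 14.5 CPM in OC-gate cells and 4.22 and 11.3 CPM in cells of both gates. In cells of both gates its log2 ratio of 1.42 ran from 0.23 to 1.92 over the alternatives. Idi1 was likewise higher in each state, with log2 ratios from 1.00 in cycling cells to 1.38 in cells of both gates.

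OC-gate cells had less of these transcripts than cells of neither gate of their own library. In the control library the summed log2 ratio was -0.80 (-0.92 to -0.67), and 5 of the 7 genes were at least 1.5-fold lower, against 9.12% of all genes, and none higher, against 6.22%. In the mutant library the ratio was -0.90 (-1.08 to -0.73), and 6 of the 7 genes were at least 1.5-fold lower, against 2.45% of all genes, and none higher, against 2.59%. These shares are over genes averaging at least 20 CPM, which 1 of the 7 genes reached in the control and 4 in the mutant comparison. Over genes averaging at least 1 CPM, which hold all 7, 13.5% were lower and 8.84% higher in the control library. In the mutant library 7.66% of them were lower and 6.93% higher. Idi1 went from 16.6 to 7.52 CPM in control cells and from 35.0 to 15.4 CPM in the mutant library, and Cyp51 from 14.6 to 7.63 CPM and from 30.6 to 12.9 CPM. The exceptions past that fold were Hmgcs1 in both libraries (-0.45 and -0.49) and, in the control library, Lss at 3.90 and 3.92 CPM (0.01, -0.52 to 0.50). With the gates set on unthinned counts the summed ratios were -0.33 and -0.42, and with 10000 UMIs per cell the mutant ratio was -0.52.

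The 7 genes together were at nearly the same level in cycling cells. Cycling cells over cells of neither gate gave 0.00 (-0.05 to 0.05) in control cells and 0.10 (0.06 to 0.14) in the mutant library. None of the 7 genes passed 1.5-fold either way, while 4.02% of all genes were higher and 0.277% lower by that fold in control cells and 5.28% and 0.356% in the mutant library. Idi1 was the one gene whose interval lay above 0 in both libraries, with 16.6 and 20.6 CPM in the control (0.31, 0.20 to 0.42) and 35.0 and 41.4 CPM in the mutant library (0.24, 0.16 to 0.33). Insig1 was lower in cycling control cells (-0.24, -0.39 to -0.10) and level in the mutant library (0.04, -0.06 to 0.15). Cells of both gates had summed ratios of -0.61 (-0.73 to -0.48) and -0.48 (-0.69 to -0.29) over cells of neither gate, with 3 of the 7 genes at least 1.5-fold lower in each library (Insig1 and Cyp51 in both, with Sqle in the control and Hmgcs1 in the mutant library), against 10.5% and 4.39% of all genes, and none higher, against 15.9% and 9.32%. Over genes averaging at least 1 CPM, which hold all 7, the shares for both gates were 14.9% and 9.87% lower and 17.8% and 15.3% higher. For cycling cells they were 1.55% and 1.31% lower and 4.94% and 6.98% higher.

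The rest of the sterol pathway was followed in a list of 15 other enzymes. Over all cells 8 of the 15 were at least 1.5-fold higher in the mutant library, none was as much lower, and the median log2 ratio was 0.60, beside the 12.6% and 0.022 of all genes. Fdps, which makes farnesyl diphosphate, had 25.7 CPM in control cells and 49.0 CPM in the mutant library, a log2 ratio of 0.93 (0.88 to 0.99), and Msmo1, a sterol methyl oxidase after Cyp51, had 47.8 and 84.8 CPM, a ratio of 0.83 (0.79 to 0.87). The smallest ratios among the better counted enzymes were 0.17 (0.10 to 0.24) for Pmvk, a mevalonate pathway kinase, and 0.19 (0.15 to 0.23) for the sterol isomerase Ebp.

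The 9 genes of SREBP control had a median log2 ratio of 0.095. None of the 9 passed 1.5-fold, where 12.6% of all genes were higher and 5.61% lower, so this count lay near the background. Srebf2, which codes for SREBP2 itself, had 33.7 and 43.0 CPM, a ratio of 0.35 (0.30 to 0.40). Insig2, the paralog of Insig1, had 20.4 and 20.8 CPM, a ratio of 0.03 (-0.05 to 0.10), and the protease gene Mbtps1, whose product makes the first cleavage of SREBPs, a ratio of -0.18 (-0.25 to -0.11). Insig1 and Insig2 thus differed in their ratios, 1.23 against 0.03, with intervals far apart.

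Of 13 genes of cholesterol uptake and lysosomal release 12 were counted, and 8 of these 12 were at least 1.5-fold higher (12.6% of all genes), none was lower by that fold (5.61%), and the median was 0.69. In cells of neither gate 5 of the 12 were higher by that fold, against 11.6% of all genes. Lipa, the lysosomal acid lipase that frees cholesterol from esters, had 430 and 876 CPM (1.03, 1.01 to 1.04), the scavenger receptor gene Msr1 had 191 and 381 CPM (1.00, 0.98 to 1.02), and Stard3, a late endosomal sterol transporter, had a ratio of 0.52 (0.46 to 0.58). Of 10 genes of efflux, esterification and oxysterols, 5 were higher and 1 lower by 1.5-fold (12.6% and 5.61% of all genes), with a median of 0.58. Apoe, the apolipoprotein that accepts exported cholesterol, had 103 and 976 CPM (3.25, 3.22 to 3.27), and Nr1h3, the oxysterol receptor LXRα, 13.9 and 58.2 CPM (2.07, 2.00 to 2.14). The smallest ratios named by the same rule were 0.46 (0.43 to 0.49) for Soat1, which esterifies cholesterol, and 0.34 (0.28 to 0.40) for Nr1h2, the other LXR gene. Beyond that rule, and named after their values were seen, the other higher genes were Abca1 (1.92), Ch25h (1.39) and Nceh1 (0.70), and the lower one was the exporter gene Abcg1 at -0.97 (-1.06 to -0.89).

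The medians of neighbouring lipid pathways lay closer to 0. Of 10 fatty acid synthesis genes, 2 were higher and 1 lower by 1.5-fold, with a median of -0.22, beside 12.6% and 5.61% of all genes. Fads1, a desaturase, had 15.2 and 32.8 CPM (1.11, 1.04 to 1.18), Acly, which supplies cytosolic acetyl-CoA, a ratio of 0.19 (0.14 to 0.24), and Fasn, fatty acid synthase, 29.5 and 21.3 CPM (-0.47, -0.54 to -0.40). Of 8 genes of the isoprenoid branch, 1 was higher and none lower by 1.5-fold, so that both lists had counts near this background, and the isoprenoid median was 0.02, from -0.56 (-0.62 to -0.50) for the farnesyltransferase subunit gene Fnta and -0.09 for Nus1 to 0.13 for Pggt1b and 0.19 for Coq2. The genes past the fold that this naming left out were the desaturase genes Fads2 (1.81) and Scd1 (-0.90, at under 1 CPM) and the geranylgeranyl diphosphate synthase gene Ggps1 (0.63).

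**Figure D3:**
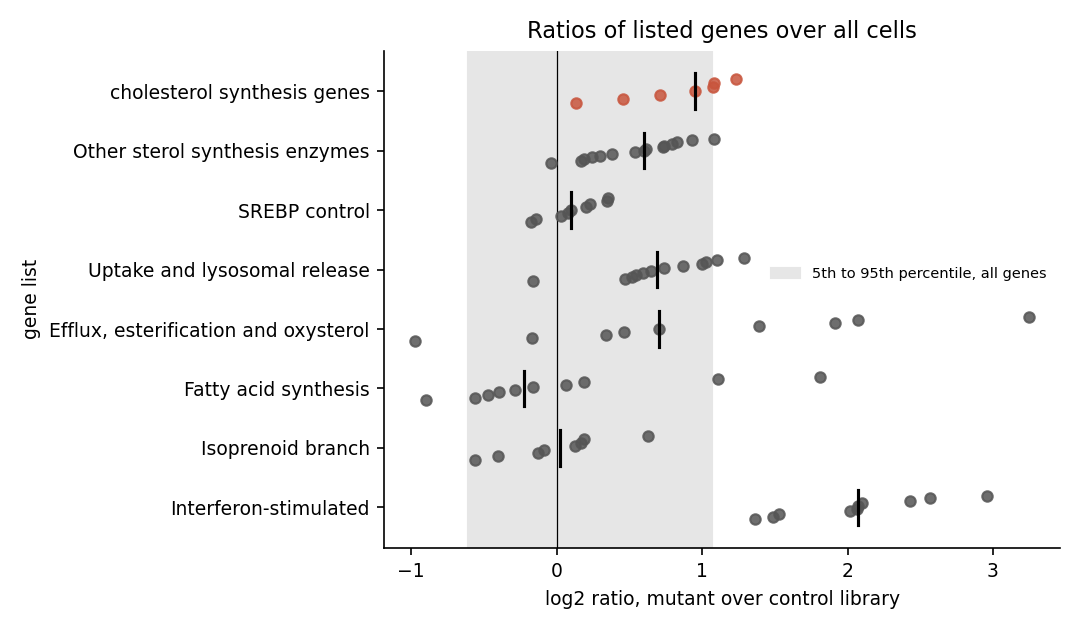
Log2 ratios of mutant over control, over all cells, for the 7 genes (red) and the listed genes (grey) with at least 50 UMIs over both libraries, 1 row per list. Black lines are medians of the plotted genes and the grey band spans the 5th to 95th percentile of genes averaging at least 20 CPM. The 7 genes have a median of 0.95 and the SREBP control genes one of 0.095.

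Which genes went with the 7 genes from cell to cell was asked within each library, over cells of neither gate (3353 control and 3387 mutant cells). Each cell's counts came from 1 library, and cells share its depth profile, so these correlations are descriptions. Between each of the 7 genes and the sum of the other 6, Pearson's r ran from 0.07 for Lss to 0.32 for Cyp51 in control cells and from 0.20 for Lss to 0.45 for Cyp51 in the mutant library. The control value of Lss lay within the 5th to 95th percentile of r between single genes and the summed 7 genes in control cells, -0.12 to 0.14. The sum of the 7 genes went with the sum of the 15 other sterol enzymes at r = 0.32 in control cells and 0.52 in the mutant library, and with the UMIs of a cell at only 0.06 and 0.05.

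Among 5215 other genes, the 10 whose lower r of the 2 libraries was highest included the sterol enzymes Fdps (0.26 in the control, 0.44 in the mutant library) and Msmo1 (0.23 and 0.34) and the regulator Srebf2 (0.24 and 0.30). The others were Ctsd (0.31 and 0.27), Stab1 (0.26 and 0.32), Lrp1 (0.25 and 0.24), Adgre1 (0.26 and 0.24), Mpeg1 (0.30 and 0.24), Dab2 (0.24 and 0.24) and Gclm (0.23 and 0.22). Among them are genes of lysosomal proteolysis, lipoprotein and scavenger uptake and the macrophage surface. The 5th to 95th percentile of r over all these genes was -0.12 to 0.14 in control cells and -0.07 to 0.13 in the mutant library.

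**Figure D4:**
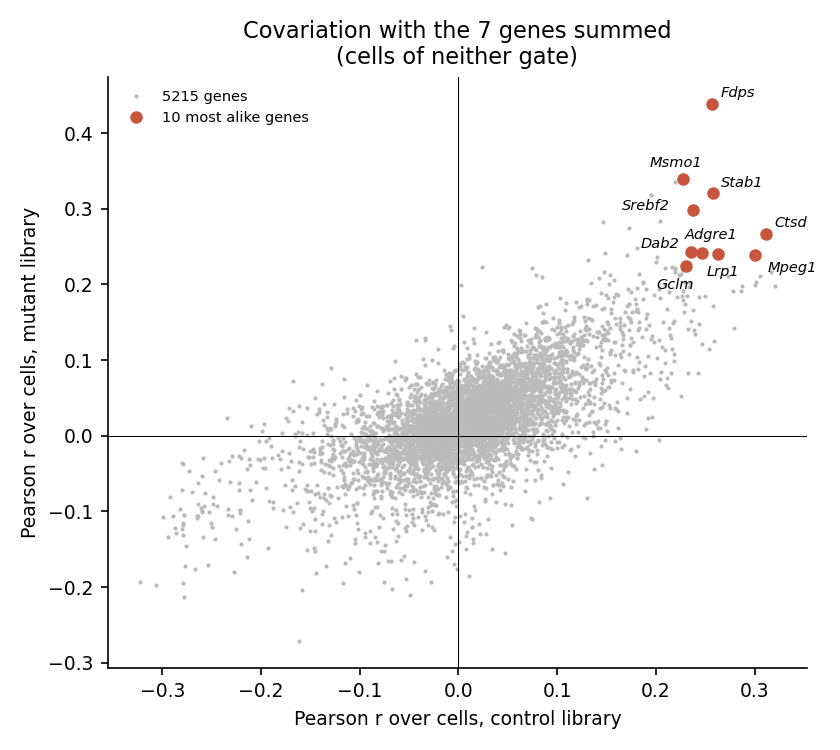
Pearson's r over cells of neither gate between each of 5215 genes and the sum of the 7 cholesterol synthesis genes, in the control library (x axis) and the mutant library (y axis), 1 point per gene. The 10 genes with the highest lower r of both libraries are red, and Fdps lies at 0.26 and 0.44.

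Over the 8 groups of cells (2 libraries by 4 states), the genes whose profile was most like the mean profile of the 7 genes were Zfp36l2 (r = 0.99), Jmjd1c (0.98), Macir (0.98), Csnk1e (0.98) and Tollip (0.97). Zfp36l2, an RNA-binding protein gene, went from 126 CPM in control OC-gate cells to 184 CPM in mutant cycling cells. The 7 genes themselves had r from 0.60 for Lss and 0.80 for Sqle to 0.98 for Idi1 and Cyp51 with that mean profile, to which each of them contributes. The 8 groups come from 2 libraries, so they are not independent.

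Interferon-stimulated genes, the most shifted list in the mutant library, were set beside the 7 genes. All 10 listed genes were at least 1.5-fold higher, against 12.6% of all genes, and none was lower by that fold, against 5.61%. Their median log2 ratio was 2.07, from 1.36 for Cxcl10 to 2.57 for Ifit3 and 2.96 for Irf7. Over cells the sum of the 7 genes went with the interferon sum at r = 0.04 in control cells and -0.13 in the mutant library. In quintiles of cells by their interferon sum, the 7 genes had 80.3, 94.3, 102, 108 and 99.2 CPM from the lowest to the highest control quintile and 175, 185, 170, 164 and 147 CPM in the mutant quintiles. Cells in the OC gate, including those of both gates, made up 21.8% of the lowest control quintile and 5.57% of the highest. Mutant cells within the interferon range of the second highest control quintile (86 cells) had 206 CPM (185 to 228), against 108 CPM (105 to 112) in that quintile. In the range of the middle control quintile there were 23 mutant cells, with 96.1 CPM (66.2 to 135), against 102 CPM (98.3 to 105) in control cells. These ranges held only 86 and 23 of the 5312 mutant cells that were split, so both comparisons cover few mutant cells.

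**Figure D5:**
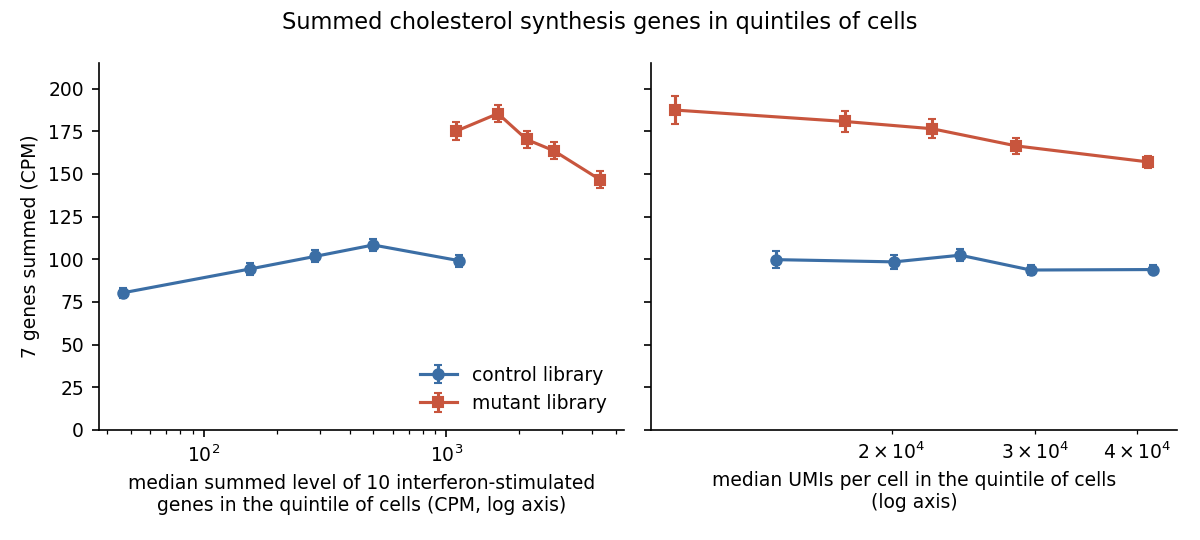
Summed level of the 7 genes in CPM in quintiles of the cells of each library, against the median summed level of 10 interferon-stimulated genes (left, log axis) and the median UMIs per cell (right, log axis), with 95% exact Poisson intervals as bars. Control quintiles lie between 80.3 and 108 CPM and mutant quintiles between 147 and 187 CPM.

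Cells were also split by Apoe, the gene with the largest ratio in the efflux list. In the mutant library the 7 genes were higher in each successive Apoe quintile, with 134, 153, 164, 180 and 210 CPM from the lowest to the highest. In the control library 3581 cells had no Apoe UMI and 90.5 CPM (88.5 to 92.5) of the 7 genes, and the highest quintile had 117 CPM (114 to 121). The 999 mutant cells without an Apoe UMI had 136 CPM (131 to 141), which lay above the control cells without one. These splits were chosen after values of these data were seen.

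Cells of the mutant library that still showed an Arid1a UMI at 5000 UMIs were compared with its other cells. The 521 such cells had 176 CPM (168 to 183) of the 7 genes and the 4791 cells without one 168 CPM (166 to 170), a log2 ratio of 0.064 (-0.0014 to 0.13). In the control library the 1346 cells with and the 4755 cells without an Arid1a UMI had 98.4 and 96.2 CPM, a ratio of 0.032 (-0.022 to 0.086). A missing UMI at this depth does not show that a cell lacks the transcript.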

How the data were processed

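For each library a matrix of genes by barcodes was deposited, holding raw UMI counts. The authors made these counts from libraries of a 10x Genomics 3′ kit with Cell Ranger 6.1.0, naming GRCm39, and the counts were used as deposited, without rescaling. Whether strand was used, or doublets were removed, is not given in the sources used here.

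There were 6455 control barcodes (164004706 UMIs) and 5865 mutant barcodes (131800059 UMIs). Cells with at least 500 genes and at most 10% mitochondrial UMIs were kept, which left out 186 and 202 barcodes. UMIs were summed over cells and scaled to their total (CPM). Levels have exact Poisson intervals, ratios exact conditional intervals and shares Clopper-Pearson intervals, all of counting error only. Depth per library sets their width. For gates and shares, cells were thinned at random to 5000 UMIs, leaving out 168 control and 351 mutant cells, while levels inside a gate use all UMIs. Doublets were kept, and removing 333 and 275 barcodes with the highest simulated-doublet scores was an alternative. Neutrophil-like cells had over 1% of UMIs in 4 neutrophil genes, and stromal-like and class II-expressing cells over 0.1% in theirs.

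Groups came from the genotype labels. The 7 genes and the lists were chosen with earlier results of these data known. Up to 4 genes of a list were named, those with the highest and lowest ratios at a mean of at least 20 CPM, besides the 10 genes most alike over cells (log1p counts per 10000 UMIs) and the 5 most alike over 8 groups. Some genes of the lists are counted but not reported here by name. Python 3.11.15, numpy 2.4.6, scipy 1.17.1 and pandas 2.3.3 were used, and scripts were tested on simulated data. Of 32544 gene identifiers 31977 matched GENCODE M39, from which coordinates were taken.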

Additional observations from a re-analysis of the deposited data

Results flagged for a closer look

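Sqle differed between the libraries in how it went with cycling. In cycling cells over cells of neither gate its log2 ratio was -0.090 in the control library and 0.28 in the mutant library, and the intervals of counting error (-0.18 to -0.00 and 0.19 to 0.37) did not overlap. With 1 library per genotype this difference was not tested, and under gates set on unthinned counts the control value was 0.068, with an interval from -0.05 to 0.19.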

How the results depend on the processing

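The summed log2 ratio of the 7 genes over all cells, 0.80, was above 0 under each of 8 alternatives, with TMM factors at 0.74 and without mitochondrial and ribosomal protein genes at 0.69 as the values farthest off. TMM moved all log2 ratios by -0.063 and leaving out those genes by -0.11, which took the median of all genes to -0.042 and -0.088. Leaving out those genes also gave 0.63 in cells of neither gate and 0.72 in cycling cells. With gates at 2000 UMIs the ratio was 0.78 in cells of neither gate and 0.52 in cells of both gates, and at 10000 UMIs 0.78 in cycling cells. With at least 5 gate UMIs it was 0.39 in OC-gate cells and 0.50 in cells of both gates. For OC-gate cells over cells of neither gate, the control ratio was -0.63 at 2000 UMIs and -0.61 at 10000 UMIs. The mutant ratio was -0.52 at 10000 UMIs, -0.63 with at least 2 and -1.09 with at least 5 gate UMIs. For cycling cells over cells of neither gate, the control ratio was 0.057 with cells weighted alike, 0.069 at 10000 UMIs, 0.050 with at least 2 gate UMIs and -0.052 without Mki67 in the gate, and its sign changed in 4 of 13 alternatives. The mutant ratio was 0.17 with cells weighted alike, 0.043 at 2000 UMIs and 0.043 with at least 5 gate UMIs. The number of genes past the fold was 3 at 2-fold, and otherwise 5 or 6. The difference in shares of cells was 10.8 percentage points at 2000 UMIs and 0.391 without thinning.

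A second random thinning, gates on unthinned counts and a background filter at 1 CPM were alternatives chosen after seeing the data. Gates on unthinned counts gave -0.33 (control) and -0.42 (mutant) for OC-gate cells, and 0.13 and 0.19 for cycling cells. They also turned Sqle in cycling control cells from -0.090 to 0.068. For single genes, 714 of 783 values over 63 results lay within the counting interval of the reported value, 68 lay outside it and 1 turned in direction. The cause of these changes was not tested. No paired analysis was possible because each genotype had 1 library. Few counts lie behind Lss (619 control and 681 mutant UMIs) and behind the 58 mutant cells of both gates.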
